A study of Saccharomyces cerevisiae with 12 samples.

Results

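The yeast genes described here carry sodium and potassium ions across membranes or control that transport. They were chosen by name, as the rows of the deposited count table for *ENA1* (YDR040C), *ENA2* (YDR039C), *ENA5* (YDR038C), *NHA1* (YLR138W), *NHX1* (YDR456W), *TRK1* (YJL129C), *TRK2* (YKR050W), *TOK1* (YJL093C), *HAL5* (YJL165C) and *SAT4* (YCR008W), which are 10 of the 7126 genes in the table. The rule uses names and sets no limit on a measured value, although earlier results of these data were known when it was made. The 3 *ENA* rows were also added up and treated as 1 gene, because the copies share most of their sequence. All 10 genes passed the filter on low counts, which left 6040 genes to be tested.

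The RNA-seq experiment compared wild type cells with the Spt4-AA mutant, in which Thr42 and Ser43 of the elongation factor Spt4 are alanine, before and after a short osmotic stress. Those residues were studied as targets of the stress-activated kinase Hog1. There were 4 groups of 3 biological replicates, named here wild type without stress, wild type upon NaCl, Spt4-AA without stress and Spt4-AA upon NaCl. All cells were MATa of the BY4741 background with ura3-delta 0, his3-delta 1, met15-delta 0 and leu2-delta 0, and in both strains Spt4 carried a TAP tag (SPT4-TAP::kanMX4 in the wild type, SPT4(T42A/S43A)-TAP::kanMX4 in the mutant), so a strain with untagged Spt4 is not among the groups. Cells grew in YPD at 30ºC to log phase, and the stressed groups then received 0.4 M NaCl for 15 min.

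A yeast cell keeps much potassium and little sodium inside, because sodium ions at high levels inhibit enzymes that need potassium or magnesium. Sodium leaves through P-type ATPases of the Ena family and through the antiporter Nha1, and a part is stored in endosomes and the vacuole by Nhx1. Potassium enters mainly through Trk1 and Trk2, driven by the membrane potential that the proton pump Pma1 builds, and leaves through the channel Tok1 when the membrane depolarises. The kinases Hal5 and Sat4 (also called Hal4) keep Trk transporters at the plasma membrane. *ENA1* is a classic salt-induced gene, controlled by Hog1 through the repressor Sko1, by calcineurin through Crz1, and by the glucose and pH repressors Mig1 and Nrg1.

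The 12 libraries held 12903162 to 21909524 counts on genes, with a median of 15580005. The genes deleted in the background, *LEU2*, *MET17* and *URA3*, summed to 0 to 2 counts in 11 libraries and to 139 counts in replicate 2 of Spt4-AA upon NaCl. Genes of a cells (*STE2*, *MFA1* and *MFA2*) summed to 10079 to 26635 counts and genes of alpha cells (*STE3*, *MF(ALPHA)1* and *MF(ALPHA)2*) to 52 to 121. Replicates 1 and 2 of Spt4-AA upon NaCl carry library numbers well apart from those of the other 10 libraries, which lie close together. Replicates of a group differed by more than counting error, with a chi-square per degree of freedom over genes of 6.31 to 34.2 in the other 3 groups and of 31.2 to 128 in Spt4-AA upon NaCl. In that group it was 31.2 between replicates 1 and 2, 72.1 between 1 and 3 and 128 between 2 and 3. The 2 values with replicate 3 of Spt4-AA upon NaCl were the largest of all pairs. Strain comparisons upon NaCl that were called among the 10 transport genes are therefore also given below without single libraries and with a term for the library numbers. The other ion genes described further on were not examined in these ways. Since both libraries with outlying numbers belong to the same group, that term leaves replicate 3 alone to stand for Spt4-AA upon NaCl, with the spread taken from the other groups, and it shows that library's value and does not separate library numbers from strain and stress. Whether these differences between libraries contribute to the results was not tested beyond that. RNA from bulk cultures was measured, so a change in the share of cells that express a gene and a change in RNA per cell cannot be told apart.

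Levels are given as normalized CPM, which are counts scaled to CPM by the library total after edgeR's TMM scaling. Changes are log2 fold changes (log2FC), and a gene was called when its p-value from edgeR's quasi-likelihood test, adjusted over the 6040 genes by the Benjamini-Hochberg method, was under 0.05. In the wild type 7 of the 10 genes rose upon NaCl (*ENA1*, *ENA2*, *ENA5*, *TOK1*, *HAL5*, *NHX1* and *TRK2*) and 1 fell (*TRK1*), while *NHA1* and *SAT4* did not pass the test. Of all genes tested 70.3% were called in this comparison, 36.4% as higher and 33.9% as lower. Higher genes made up 2200 of the 4248 calls with TMM, 2825 of 4191 when scaled to library totals and 1005 of 3771 relative to *ENO1*, which served the study as loading control. *ENO1* itself had 36029 to 63135 counts in the unstressed libraries and 64122 to 105060 in the stressed ones. Its rise upon NaCl lowers every salt response given relative to it. Whether *ENO1* is a steady reference in these cells was not tested. The median log2FC of the 10 genes was 0.72, beside 0.03 over all genes tested. A change of at least 2-fold was called for 4 of them (*ENA1*, *ENA2*, *ENA5* and *TOK1*), against 37.0% of all genes. The *ENA* rows share most of their sequence. They are therefore not independent members of any count or median over the 10 genes, here or below.

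In the Spt4-AA mutant 5 genes rose upon NaCl (*ENA1*, *ENA2*, *ENA5*, *NHX1* and *TOK1*) and 2 fell (*TRK1* and *NHA1*), with *HAL5*, *TRK2* and *SAT4* not past the threshold. The background was 68.3% of all genes, 34.9% higher and 33.4% lower, so the share of the 10 genes that was called, 70.0%, lay near it. In the mutant 2107 of 4127 calls were higher with TMM, 2343 of 3845 with library totals and 589 of 4231 with *ENO1*. Relative to *ENO1*, 3 of the 10 genes were higher (the *ENA* rows) and 5 lower (*TRK1*, *NHA1*, *TRK2*, *HAL5* and *SAT4*) in the stressed mutant. The 2-fold limit was passed by 4 genes (*ENA1*, *ENA2*, *ENA5* and *TRK1*), against 30.6%. The medians were 0.55 for the 10 genes and 0.01 for all genes. In these numbers too the *ENA* rows count separately, although they share most of their sequence.

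Without stress none of the 10 genes differed between the strains by edgeR's test at the adjusted threshold, and none had an unadjusted p under 0.05, the smallest being 0.215 for *ENA1*. DESeq2 also called none of them. Of all genes, 0.828% were called without a limit on the fold and 0.480% with one. The log2FC of the 10 genes ranged from -0.08 for *HAL5* and *NHX1* to 0.15 for *ENA1*. The values of the strains overlapped for each of them, and the share of all genes with such an overlap was not computed. Upon NaCl, 3 genes differed between the strains. *NHX1* was higher in the mutant, and *NHA1* and *HAL5* were lower. All genes were called at 47.7% (24.3% higher and 23.4% lower), a larger share than among the 10 genes, and with the 2-fold limit at 10.9%, beside *HAL5* alone here. Of the calls upon NaCl 1466 of 2879 were higher with TMM, 918 of 2733 with library totals and 582 of 1964 with *ENO1*. The difference in salt response, which is the log2FC of the mutant minus that of the wild type, passed the threshold for the same 3 genes in the same directions, beside 26.0% of all genes (15.0% higher and 11.0% lower). The 5 comparisons come from 1 model and share libraries, so they are not independent of each other.

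**Figure D1:**
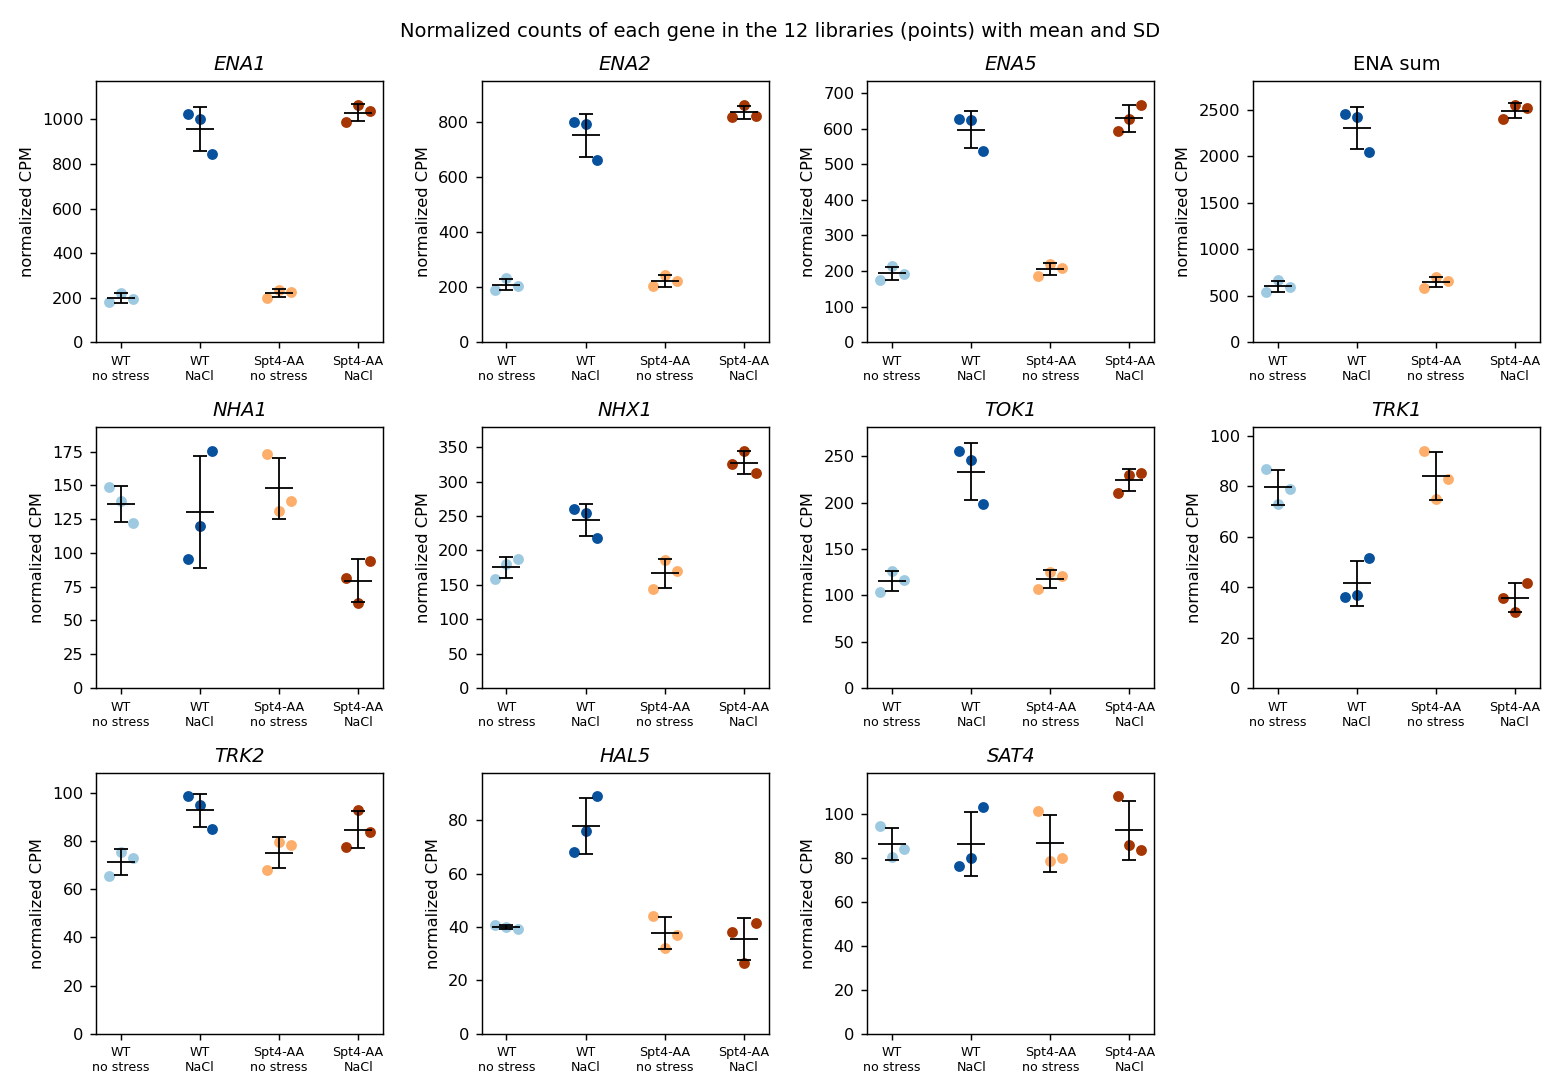
Normalized CPM (linear axes from 0) of each of the 10 genes and of the summed ENA rows in the 12 libraries, 3 points per group with the mean (long bar) and SD (whiskers). The stressed points of ENA1, ENA2, ENA5, TOK1 and NHX1 lie above the unstressed points in both strains, HAL5 is high in the stressed wild type alone, and NHA1 is lowest in the stressed mutant.

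The sodium pumps *ENA1*, *ENA2* and *ENA5* stand in tandem on chromosome IV of the R64 genome, all on the minus strand and each with an uninterrupted coding sequence of 3276 bases. *ENA1* lies at IV:535192-538467, *ENA2* at IV:531307-534582 and *ENA5* at IV:527422-530697. Their coding sequences are 98.7% identical between *ENA1* and *ENA2*, 99.0% between *ENA2* and *ENA5* and 97.7% between *ENA1* and *ENA5*. *ENA1* and *ENA2* differ at 43 bases, 41 of them within the first 270. *ENA2* and *ENA5* differ at 34 bases, the first at base 2644 from the start codon and 30 of them in the last 116 bases. The ends of the coding sequence are shown because they are what tells the copies apart in reads of 50 bases. Capitals in the first 90 bases mark the 11 positions where *ENA1* differs from *ENA2*.
ENA1, bases 1 to 90, IV:538378-538467, minus strand: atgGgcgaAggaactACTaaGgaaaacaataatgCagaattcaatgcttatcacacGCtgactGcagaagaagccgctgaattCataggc
ENA2, bases 1 to 90, IV:534493-534582, minus strand: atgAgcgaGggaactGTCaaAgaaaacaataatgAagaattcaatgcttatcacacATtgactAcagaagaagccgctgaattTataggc
ENA5, bases 1 to 90, IV:530608-530697, minus strand: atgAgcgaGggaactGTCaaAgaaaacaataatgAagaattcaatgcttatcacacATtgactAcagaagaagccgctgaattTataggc

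*ENA2* and *ENA5* are identical in this first stretch. The pairing is the other way round at the end of the gene, where *ENA1* and *ENA2* are identical over the last 90 bases and *ENA5* differs at 25 positions, marked by capitals.
ENA1, bases 3187 to 3276, IV:535192-535281, minus strand: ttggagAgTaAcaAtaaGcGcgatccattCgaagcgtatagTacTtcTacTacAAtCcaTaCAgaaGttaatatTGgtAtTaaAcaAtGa
ENA2, bases 3187 to 3276, IV:531307-531396, minus strand: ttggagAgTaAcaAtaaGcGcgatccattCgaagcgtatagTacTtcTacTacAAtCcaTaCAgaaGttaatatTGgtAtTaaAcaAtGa
ENA5, bases 3187 to 3276, IV:527422-527511, minus strand: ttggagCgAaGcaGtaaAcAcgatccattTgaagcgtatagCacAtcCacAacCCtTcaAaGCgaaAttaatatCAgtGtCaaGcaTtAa

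Of the 3227 windows of 50 bases in each copy, 2572 occur in all 3 genes. Windows found nowhere else in the genome number 370 in *ENA1* (11.5%) and 285 in *ENA5* (8.83%), and there are 0 in *ENA2*, also among the 98 windows that reach past its ends. *ENA2* nevertheless had 2542 to 15737 counts per library. The study's methods state that uniquely mapping reads were counted, and by this sequence such reads could not have been assigned to *ENA2*, so how reads shared by the copies were counted is not settled. The value of a single row is therefore not taken as the level of that copy, and the sum may hold a shared read more than once. Every 50-base window of the other 7 genes is unique in the genome.

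**Figure D2:**
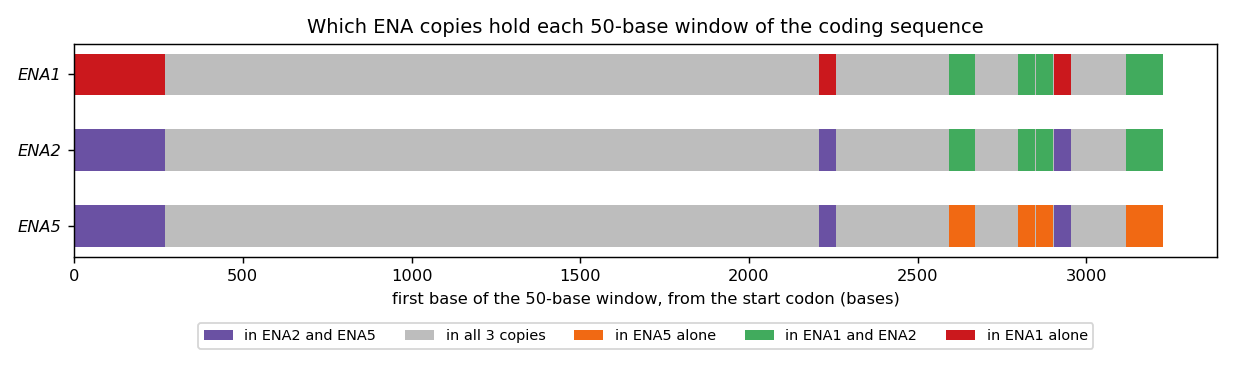
Which ENA copies hold each 50-base window of the coding sequence, by the first base of the window counted from the start codon, with 1 bar per copy. Red windows occur in ENA1 alone (370) and orange ones in ENA5 alone (285), purple ones are shared by ENA2 and ENA5, green ones by ENA1 and ENA2, and grey ones, 2572 per copy, by all 3.

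The summed *ENA* RNA rose close to 4-fold upon NaCl in both strains. In the wild type the sum was 544, 666 and 592 normalized CPM without stress and 2453, 2421 and 2042 upon NaCl, in replicate order. In the mutant it was 588, 699 and 653 without stress and 2400, 2555 and 2524 upon NaCl. Every stressed library thus lay above every unstressed one, and the strains overlapped in both conditions. The log2FC was 1.94 (SE 0.13, 3.84-fold, adjusted p = 3.18e-09 by edgeR's quasi-likelihood test) in the wild type and 1.95 (SE 0.13, 3.86-fold, adjusted p = 5.01e-09) in the mutant. The responses differed by 0.01 (SE 0.17, 95% interval -0.37 to 0.38, adjusted p = 0.983 by the same test). Between the stressed strains the sum differed by 0.11 (95% interval -0.15 to 0.38, adjusted p = 0.465). With a per-library offset for gene length this last value became 0.48 and passed the threshold (adjusted p = 0.0429), a setting discussed with the lengths of the genes further on.

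Each of the 3 rows followed the sum, with unequal gains. *ENA1* had a mean of 198 ± 21.3 CPM (SD, n = 3) in the unstressed and 957 ± 98.4 CPM in the stressed wild type, with a log2FC of 2.27 (SE 0.12) there and 2.23 (SE 0.12) in Spt4-AA. The log2FC of *ENA2* was 1.85 (SE 0.12) in the wild type and 1.91 (SE 0.12) in the mutant. For *ENA5* it was 1.62 (SE 0.11) in both strains. All 6 values passed the test. The difference in response passed the test for none of the rows, at log2 values of -0.04, 0.06 and 0.00 (adjusted p of 0.799 to 0.997, edgeR).

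The share of each row in the summed counts moved with salt in both strains. *ENA1* took 33.0 ± 0.192% (SD, n = 3) of the sum in the wild type without stress and 41.5 ± 0.223% upon NaCl. In the mutant the *ENA1* share was 34.0 ± 0.541% and 41.3 ± 0.348%. The *ENA1* shares of the 6 stressed libraries, 41.1 to 41.8%, did not overlap those of the 6 unstressed ones, 32.8 to 34.7%. *ENA5* moved the other way, from 32.2 ± 0.162% to 25.9 ± 0.327% in wild type cells and from 31.6 ± 0.125% to 25.2 ± 1.05% in Spt4-AA cells. *ENA2* went from 34.8% to 32.6% in wild type cells and from 34.4% to 33.5% in Spt4-AA cells. The count of *ENA1* minus that of *ENA2* ran from -211 to 71 in the unstressed libraries and from 3002 to 4139 in the stressed ones.

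**Figure D3:**
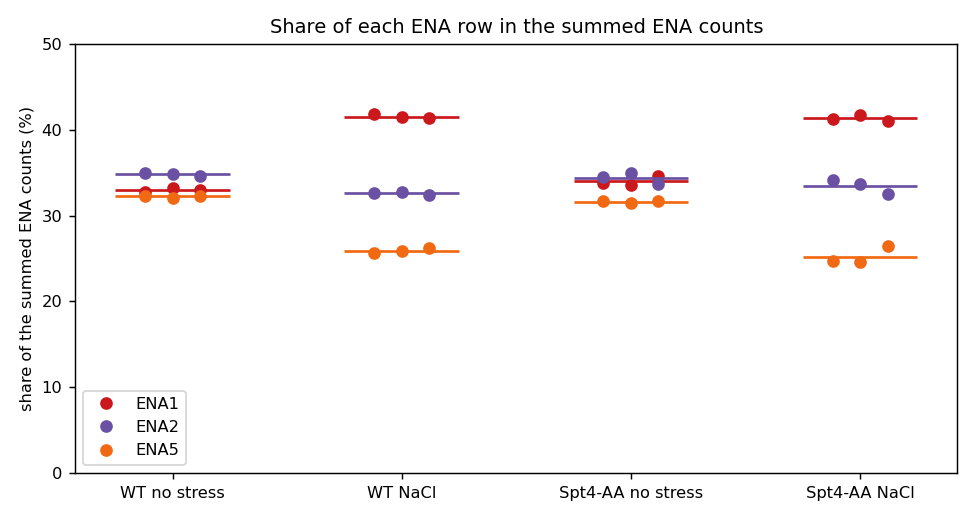
Share of each ENA row in the summed ENA counts of a library, in percent, with 3 libraries per group as points and the group mean as a line. Upon NaCl the ENA1 share lies above 41% and the ENA5 share below 27% in both strains, whereas without stress the 3 rows lie between 31% and 35%.

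The regions before the start codons split the copies in the same way as the first bases of the genes. The 800 bases before *ENA2* and *ENA5*, of which the nearest 609 lie between genes and the rest in the coding sequence of the neighbouring copy, are identical at all 800 positions, while those before *ENA1* match either of them at 401 of 842 aligned columns (47.6%). Short letters bound by regulators of *ENA1* were searched on both strands of these 800 bases in each gene, namely AGGGG (core of the stress response element bound by Msn2 and Msn4), TGACG (part of the element that Sko1 binds), GAGGCT (core bound by Crz1) and GCCAAG (core bound by Rim101). They occur in 47.4%, 61.7%, 19.0% and 29.6%, in that order, of the windows of the same length before 6426 yeast genes. *ENA1* had 1 match to AGGGG, 651 bases before the start codon, and 4 to TGACG, at 793, 548, 509 and 326 bases. It had none to GAGGCT or GCCAAG. *ENA2* and *ENA5* had none to AGGGG or GCCAAG, 1 to TGACG (284 bases) and 1 to GAGGCT (196 bases). No letters were searched for Mig1 or Nrg1. Parts of both regions are shown for this contrast, with matches in capitals; CGTCA is TGACG read on the other strand.
ENA1, 670 to 491 bases before the start codon, IV:538958-539137, minus strand: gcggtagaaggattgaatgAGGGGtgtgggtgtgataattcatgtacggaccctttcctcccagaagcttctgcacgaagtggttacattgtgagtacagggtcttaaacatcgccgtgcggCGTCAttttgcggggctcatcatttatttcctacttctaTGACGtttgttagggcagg
ENA2, 300 to 181 bases before the start codon, IV:534763-534882, minus strand: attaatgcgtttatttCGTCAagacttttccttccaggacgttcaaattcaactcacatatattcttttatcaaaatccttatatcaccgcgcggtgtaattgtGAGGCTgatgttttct

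The antiporters moved apart in the mutant upon NaCl. *NHX1*, on chromosome IV at 1367485 to 1369386 (plus strand, 1902 bases), encodes the sodium and proton exchanger of endosomes and the vacuole. It stood at 158, 180 and 188 CPM in the wild type without stress and at 260, 255 and 218 CPM upon NaCl. The mutant had 144, 186 and 169 CPM without stress and 325, 345 and 312 CPM upon NaCl. All stressed values exceeded the unstressed ones of their strain, and the 3 stressed mutant libraries lay above the 3 stressed wild type libraries. *NHX1* rose with a log2FC of 0.48 (SE 0.11, adjusted p = 0.00132, edgeR) in the wild type and 0.97 (SE 0.11, adjusted p = 2.12e-06) in the mutant. Upon NaCl it was 1.34-fold higher in the mutant (log2FC 0.42, SE 0.11, adjusted p = 0.00604 by edgeR's test), and its response was larger by 0.50 (SE 0.16, 95% interval 0.17 to 0.83, adjusted p = 0.0298). This difference in response missed the threshold in 7 of the 12 fits that each left out 1 library, and over all 12 it ran from 0.40 to 0.58 on the log2 scale with adjusted p of 0.0169 to 0.081 (edgeR). With the term for library numbers, where replicate 3 alone stands for the stressed mutant, the values were 0.43 for the response (adjusted p = 0.14) and 0.35 for the strain difference upon NaCl (adjusted p = 0.0965). Scaling to library totals gave 0.31 for the response and 0.22 upon NaCl, and scaling to *ENO1* gave 0.19 and 0.11, none past the threshold. Relative to *ENO1* the salt response of *NHX1* itself was -0.05 in wild type cells and 0.14 in Spt4-AA cells, neither past the threshold (adjusted p of 0.784 and 0.407).

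*NHA1*, on chromosome XII at 418437 to 421394 (plus strand, 2958 bases), encodes the plasma membrane antiporter that moves sodium and potassium out in exchange for protons. Its levels were 148, 138 and 122 CPM in the wild type without stress and 95.3, 120 and 176 CPM upon NaCl. In Spt4-AA they were 174, 131 and 138 CPM without stress and 81.4, 62.6 and 94.2 CPM upon NaCl. The stressed wild type libraries were spread on both sides of the unstressed ones, whereas every stressed mutant library was below all others. The log2FC of *NHA1* was -0.06 (SE 0.20, 95% interval -0.48 to 0.36, adjusted p = 0.787) in the wild type and -0.90 (SE 0.20, adjusted p = 0.00109, both by edgeR) in the mutant. The difference in response was -0.83 (SE 0.28, adjusted p = 0.0405, edgeR), and upon NaCl the mutant was lower by a log2FC of -0.71 (SE 0.20, adjusted p = 0.00927). Without replicate 3 of the wild type upon NaCl, the highest of its group, these values became -0.55 (adjusted p = 0.0959, edgeR) and -0.44 (adjusted p = 0.052). The difference in response was also lost in 7 other fits that left out 1 library, and it missed the threshold with library totals (-1.02, adjusted p = 0.0749, edgeR) and with *ENO1* (-1.12, adjusted p = 0.15). With replicate 3 as the only stressed mutant library, under the term for library numbers, they were -0.59 (adjusted p = 0.272) and -0.47 (adjusted p = 0.239), and the fall in the mutant was -0.65 (adjusted p = 0.0538, edgeR).

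Of the potassium genes, *TRK1* RNA fell and *TOK1* RNA rose upon NaCl in both strains, and *TRK2* RNA rose in the wild type. *TRK1*, which encodes the main high-affinity potassium transporter, lies on chromosome X at 173599 to 177306 (minus strand, 3708 bases). It had 86.9, 73.1 and 79.1 CPM in the wild type without stress and 36.0, 36.8 and 51.7 CPM upon NaCl. The mutant values were 94.2, 75.0 and 83.0 CPM without stress and 35.5, 30.0 and 41.6 CPM upon NaCl. Stressed and unstressed libraries did not overlap in either strain, and the strains overlapped within each condition. *TRK1* fell by 0.94 on the log2 scale in the wild type (SE 0.15, 1.92-fold, adjusted p = 5.88e-05 by edgeR) and by 1.23 in the mutant (SE 0.15, 2.35-fold, adjusted p = 5.43e-06). The difference in response was -0.29 (SE 0.21, 95% interval -0.75 to 0.17, adjusted p = 0.322).

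The coding sequences of *TRK1* and *TRK2* match at 1770 of 3725 alignment columns (47.5%), 1072 of which are gaps, with no shared 50-base window. *TRK2*, on chromosome XI at 527815 to 530484 (plus strand, 2670 bases), encodes the second transporter of the pair. It ran from 65.4 to 75.6 CPM without stress and from 85.1 to 98.5 CPM upon NaCl in wild type cells. In Spt4-AA cells it ran from 67.7 to 79.4 CPM and from 77.6 to 92.8 CPM. The wild type groups were apart and the mutant groups overlapped. The log2FC was 0.38 (SE 0.10, adjusted p = 0.00395, edgeR) in the wild type and 0.17 (SE 0.10, adjusted p = 0.145) in the mutant, and the difference between them, -0.21 (SE 0.14, 95% interval -0.52 to 0.10), did not pass the test (adjusted p = 0.301). The direction of *TRK2* was not held under scaling to *ENO1*, which gave -0.14 in the wild type (adjusted p = 0.46, edgeR) and -0.66 in the mutant (adjusted p = 0.00287). Scaled to library totals *TRK2* rose by 0.32 in the mutant as well (adjusted p = 0.0128), and the stressed strains differed by -0.34 (adjusted p = 0.0148, edgeR).

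*TOK1*, on chromosome X at 254737 to 256812 (minus strand, 2076 bases), encodes the outward potassium channel of the plasma membrane. Its CPM were 104, 126 and 116 without stress and 256, 246 and 199 upon NaCl in the wild type. In the mutant they were 107, 126 and 121 without stress and 211, 230 and 232 upon NaCl. The salt groups were well apart in both strains and the strains overlapped in both conditions. The log2FC of *TOK1* was 1.02 (SE 0.11, adjusted p = 1.06e-06, edgeR) in the wild type and 0.93 (SE 0.11, adjusted p = 3.81e-06) in the mutant, with a difference in response of -0.08 (SE 0.16, 95% interval -0.42 to 0.25). Under scaling to *ENO1* the rise in the mutant was 0.11 and not past the threshold (adjusted p = 0.563).

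*HAL5* gave the largest difference in response among the 10 genes, and the related kinase gene *SAT4* passed the test in no comparison. *HAL5*, on chromosome X at 106894 to 109461 (minus strand, 2568 bases), had 40.9, 39.8 and 39.3 CPM in the wild type without stress and 68.1, 76.1 and 89.0 CPM upon NaCl. In the mutant *HAL5* had 44.1, 32.3 and 36.9 CPM without stress and 38.2, 26.5 and 41.4 CPM upon NaCl. Each stressed wild type library was above all 9 others, which overlapped among themselves. *HAL5* rose 1.94-fold in the wild type (log2FC 0.96, SE 0.16, adjusted p = 6.84e-05, edgeR), and in the mutant its log2FC was -0.09 (SE 0.16, 95% interval -0.44 to 0.25, adjusted p = 0.614). The difference in response was -1.05 (SE 0.22, 95% interval -1.53 to -0.57, adjusted p = 0.00368 by edgeR's test), and upon NaCl *HAL5* was 2.19-fold lower in the mutant (log2FC -1.13, SE 0.16, adjusted p = 6.28e-05). Both results passed the threshold in all 12 fits that left out 1 library. Without replicate 2 of Spt4-AA upon NaCl, the lowest of its group and the library with counts on deleted genes, they were -0.88 (adjusted p = 0.0037, edgeR) and -0.97 (adjusted p = 9.72e-05). With replicate 3 as the only library of the stressed mutant, which is what the term for library numbers leaves, they were -0.83 (adjusted p = 0.0428) and -0.91 (adjusted p = 0.00651). Scaling to *ENO1* left a difference in response of -1.32 that was not past the threshold (adjusted p = 0.0728, edgeR), and under that scaling the wild type rise was 0.45 (adjusted p = 0.209) and the mutant fall -0.88 (adjusted p = 0.0191).

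The coding sequences of *HAL5* and *SAT4* match at 1124 of 2579 alignment columns (43.6%), 778 of which are gaps, with no shared 50-base window. *SAT4*, on chromosome III at 128470 to 130281 (plus strand, 1812 bases), is the related kinase gene. It ranged from 80.4 to 94.7 CPM in the wild type without stress, from 76.2 to 103 upon NaCl, from 78.7 to 101 in the unstressed mutant and from 83.8 to 108 in the stressed mutant. All 4 groups overlapped. The log2FC was 0.00 (SE 0.14, 95% interval -0.30 to 0.30) in the wild type and 0.09 (SE 0.14, -0.21 to 0.40) in the mutant, with adjusted p of 0.996 and 0.565 by edgeR's test. Relative to *ENO1*, *SAT4* was lower in the stressed mutant with a log2FC of -0.74 (adjusted p = 0.0152).

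*HAL5* had 3 matches to AGGGG in the 800 bases before its start codon, the most of the 10 genes, at 685, 398 and 192 bases. The farthest lies beyond the 504 bases that separate *HAL5* from the next annotated gene, and without it *HAL5* has 2, as many as *TRK2*. How many of all genes have 3 matches was not counted. The stretch with both nearer matches is shown because *HAL5* gave the largest strain difference; CCCCT is AGGGG on the other strand.
HAL5, 410 to 181 bases before the start codon, X:109642-109871, minus strand: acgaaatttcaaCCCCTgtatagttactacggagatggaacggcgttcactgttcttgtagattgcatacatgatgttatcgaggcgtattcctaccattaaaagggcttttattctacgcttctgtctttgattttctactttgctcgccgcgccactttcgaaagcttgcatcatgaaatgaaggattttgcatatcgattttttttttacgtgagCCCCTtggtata

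AGGGG was also found before *NHA1* (1 match), *TRK1* (1), *TRK2* (2) and *SAT4* (1), and not before *NHX1* or *TOK1*. TGACG occurred before *NHA1* (2), *TRK1* (1) and *SAT4* (2), GAGGCT before *TRK2* (2) and GCCAAG before *SAT4* (1). The farther TGACG before *NHA1*, at 716 bases, and the GCCAAG before *SAT4*, at 745 bases, lie beyond the 327 and 680 bases that separate these genes from the next annotated gene. The genes with a match to AGGGG thus include ones that rose (*ENA1*, *HAL5*, *TRK2*), one that fell (*TRK1*) and ones that did not pass the test in the wild type (*NHA1*, *SAT4*). A match is a stretch of letters and no measured binding.

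**Figure D4:**
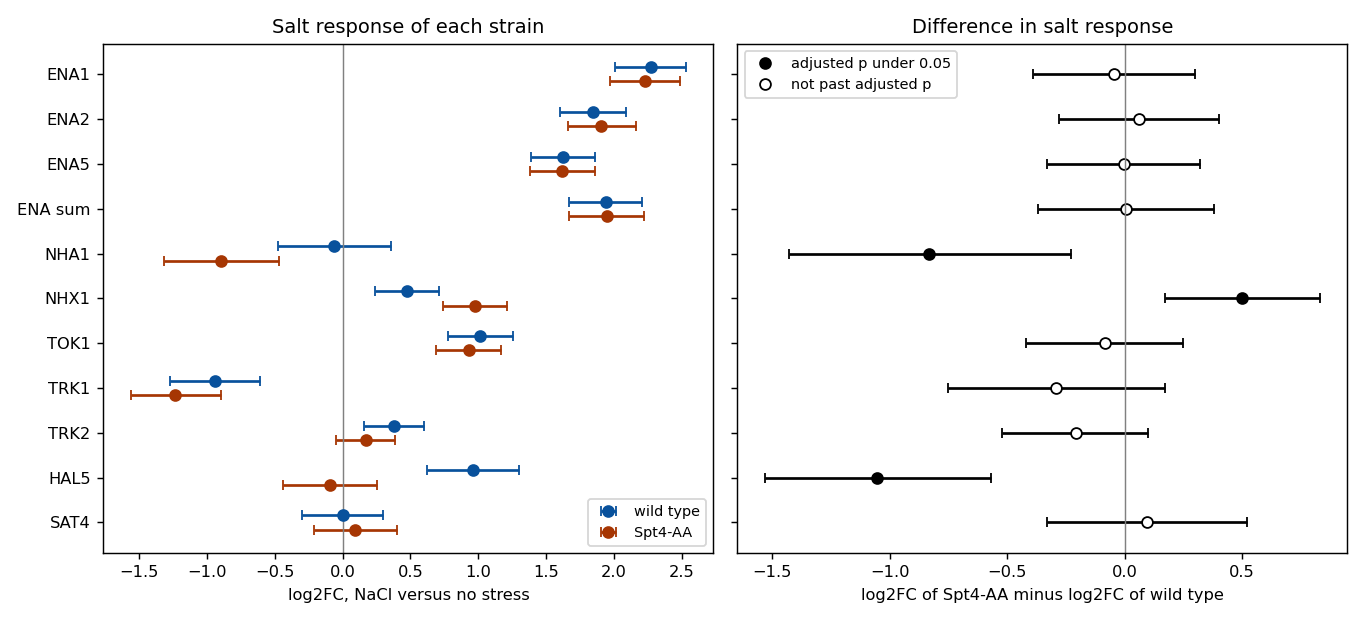
Left, log2FC upon NaCl of each gene and of the summed ENA rows in the wild type (blue) and Spt4-AA (brown). Right, the log2FC of Spt4-AA minus that of the wild type, filled where the adjusted p was under 0.05. Points are estimates and whiskers 95% intervals. HAL5 (-1.05), NHA1 (-0.83) and NHX1 (0.50) are filled, and the summed ENA rows lie at 0.01.

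Read against each other per length of coding sequence, the genes with unique reads had the following levels in the wild type without stress. *NHX1* was highest at 92.2 ± 8.06 CPM per kb (SD, n = 3), followed by *TOK1* at 55.6 ± 5.38, *SAT4* at 47.7 ± 4.10 and *NHA1* at 46.0 ± 4.55. *TRK2* stood at 26.7 ± 1.97, *TRK1* at 21.5 ± 1.87 and *HAL5* at 15.6 ± 0.32. The ranges of *TOK1* and *SAT4* overlapped, as did those of *SAT4* and *NHA1*, and the other neighbours in this order did not. Upon NaCl *HAL5* reached 30.3 ± 4.10 CPM per kb in the wild type and passed *TRK1*, at 11.2 ± 2.38. In the stressed mutant *HAL5* was at 13.8 ± 3.06 and *TRK1* at 9.63 ± 1.56, and their ranges overlapped.

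In the wild type upon NaCl, replicates 1 and 3 stood at opposite ends of the group for each of the 10 genes, with replicate 2 between them. Replicate 3 was the lowest of the 3 for *ENA1*, *ENA2*, *ENA5*, *NHX1*, *TOK1* and *TRK2* and the highest for *NHA1*, *TRK1*, *HAL5* and *SAT4*. For any gene all but the middle library stand at an end, and the share over all genes was not computed. Over the whole table the chi-square per degree of freedom of replicate 3 was 34.2 against replicate 1 and 19.0 against replicate 2. Between replicates 1 and 2 it was 7.08, so replicate 3 stood apart beyond these genes. Without replicate 3 the wild type response of the summed *ENA* rows was 2.02 and that of *HAL5* 0.85, both past the threshold. The part of that library in the strain differences is given above where a call depended on it.

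Gene length moved with the strain difference over the whole table. The difference in salt response correlated with coding length across genes (Spearman rho -0.34 over 5726 genes, which are not independent of each other), longer genes being lower in the mutant. All 10 genes, at 1812 to 3708 bases, were longer than the median of 1238.5 bases. With a per-library offset for length, *HAL5* kept a difference in response of -0.74 (adjusted p = 0.00228, edgeR) and *NHX1* one of 0.67 (adjusted p = 0.0174). *NHA1* dropped to -0.46 and missed the threshold (adjusted p = 0.0743), and the difference of *TRK1* went from -0.29 to 0.10. For *TRK2* the offset turned the calls round, with a log2FC of 0.26 in the wild type (adjusted p = 0.14, edgeR) and 0.40 in the mutant (adjusted p = 0.0345). The *ENA1*, *ENA2* and *ENA5* rows were then higher in the stressed mutant by 0.48, 0.53 and 0.44 (adjusted p of 0.0263 to 0.0408), while the difference in response of their sum, 0.38, did not pass (adjusted p = 0.301). Whether length itself plays a part in any of these values was not tested.

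Around these genes a list of 32 other genes of cation homeostasis was examined, made up of pumps, channels, exchangers, kinases, phosphatases and transcription factors, all of which passed the filter. In the wild type 19 of them rose and 6 fell upon NaCl, with a median log2FC of 0.50, and in the mutant 18 rose and 7 fell, with a median of 0.43. Of all genes 70.3% were called in the wild type (36.4% higher and 33.9% lower) and 68.3% in Spt4-AA (34.9% higher and 33.4% lower). The rises with the largest log2FC in the wild type were *PTK2* at 2.85 (SE 0.15), a kinase that activates the proton pump, *VHS3* at 2.05 (SE 0.19), an inhibitor of the phosphatase Ppz1, and *PPZ2* at 2.05 (SE 0.10), a phosphatase of that family which represses *ENA1* and Trk activity. The largest falls were in *PMA1*, the proton pump itself, at -2.62 (SE 0.14), *CCH1*, a calcium channel, at -0.61 (SE 0.11), and *PMA2*, a minor proton pump, at -0.57 (SE 0.13). *PMA1* went from 11640 to 1892 CPM on average, and *PMA2* is a close relative of it, so its row may hold shared reads.

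Without stress none of the 32 genes was called between the strains by edgeR's test, beside 0.828% of all genes. An unadjusted p under 0.05 in that test was found for 3 of the 32, and how many of all genes had one was not counted. Upon NaCl 3 were higher and 14 lower in the mutant, with a median log2FC of -0.14 beside -0.02 over all genes, of which 24.3% were higher and 23.4% lower. In the difference in response 3 were higher and 7 lower, with a median of -0.19 beside -0.01 over all genes, of which 15.0% were higher and 11.0% lower. *PTK2* reached 344 to 419 CPM in the stressed wild type and 121 to 189 CPM in the stressed mutant, a difference in response of -1.26 (SE 0.21, adjusted p = 0.000633, edgeR). *HRK1*, a second kinase that activates Pma1, had a difference of -0.89 (SE 0.21, adjusted p = 0.00733), with 103 to 163 CPM in the stressed wild type and 67.0 to 87.4 in the stressed mutant. *MIG1*, the glucose repressor, differed by -0.74 (SE 0.13, adjusted p = 0.00101). On the other side *PHO89*, a sodium and phosphate cotransporter, differed by 1.34 (SE 0.43, adjusted p = 0.0344, edgeR), at levels of only 0.778 to 4.49 CPM and with an unstressed strain difference of -1.12 that did not pass the test (adjusted p = 0.245). *PMA1* fell less in the mutant, by a difference of 0.58 (SE 0.19, adjusted p = 0.0349), and *MET22*, a phosphatase inhibited by sodium, differed by 0.54 (SE 0.17, adjusted p = 0.0306). None of these 32 genes was examined without single libraries, with the term for library numbers or under another scaling.

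**Figure D5:**
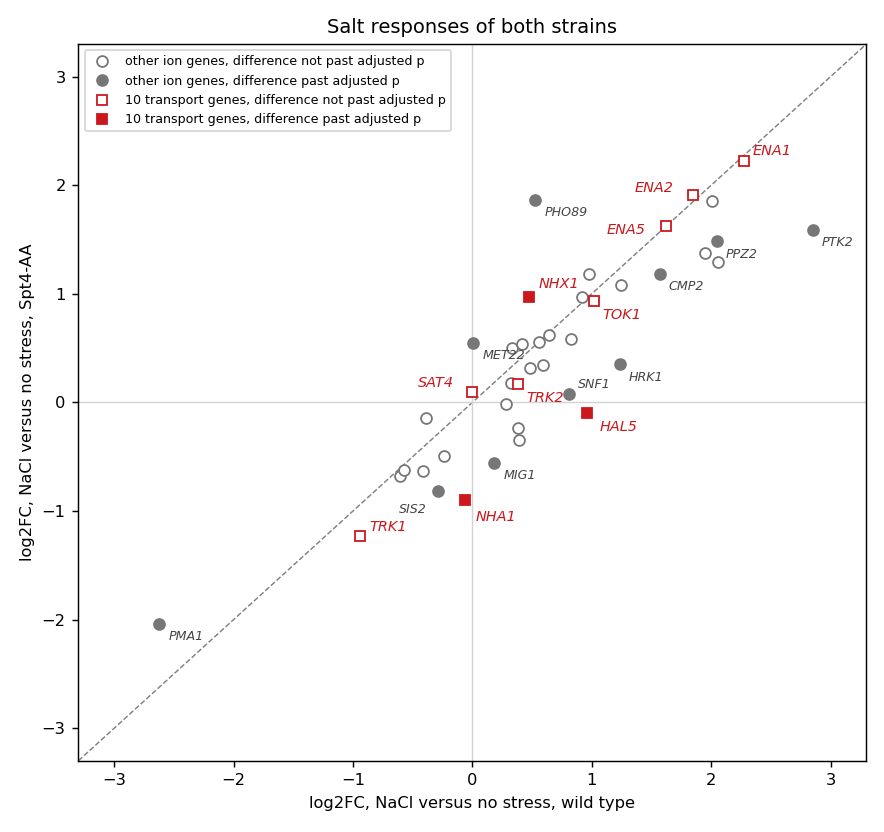
Log2FC upon NaCl in Spt4-AA (vertical axis) against the wild type (horizontal axis) for the 10 genes (red squares) and the 32 other ion genes (grey circles), filled where the difference in response had an adjusted p under 0.05, with the line of equal response dashed. The ENA genes and TOK1 lie near the line, HAL5 and PTK2 lie below it, and PHO89 and NHX1 lie above it.

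The genes with the pattern most like that of the summed *ENA* rows over the 12 libraries, by Pearson correlation of log2 CPM, were *CWP1* (r = 0.9952), YJL132W (0.9951), YML131W (0.995), *GRX2* (0.9949) and *MDL2* (0.9946), and 1077 of 6037 genes had an r over 0.9. Among the other genes described here the correlation with the sum was 0.99 for *TOK1*, 0.92 for *NHX1*, 0.82 for *TRK2*, 0.36 for *HAL5*, 0.05 for *SAT4*, -0.65 for *NHA1* and -0.97 for *TRK1*. These are descriptions over 12 libraries that share the contrast of 6 stressed with 6 unstressed samples.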

How the data were processed

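Poly(A) RNA was sequenced as single-end reads of 50 bases in 12 libraries. Per the study's methods and the submitters' processing notes, the authors mapped reads to sacCer3 with TopHat2 2.1.0, counted them per gene with featureCounts 1.5.1 and the Ensembl R64 annotation, and tested with DESeq2 1.14.1. They deposited raw counts for 7126 genes, without normalization or pooling. The kit is stranded, and whether the counting used strand is not given in the sources used here. None of the 10 genes overlaps another annotated gene. The number of columns left unused was 0.

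Groups came from the sample labels. The counts were tested with edgeR 4.0.16 in R 4.3.3 (TMM, filterByExpr, robust quasi-likelihood test, 4 group coefficients in 1 fit over 12 libraries, Benjamini-Hochberg over 6040 genes, threshold 0.05, and an absolute log2FC of 1 as a second rule). For the summed *ENA* values the 3 rows were replaced by their sum and the table was fitted again. Over the genes tested the SE of a log2FC had a median of 0.14 between 2 groups, and 0.20 when responses were compared. P-values set a difference against a spread between replicates that was estimated over all 4 groups together and moderated across genes. Intervals are 95% intervals of the fit. The code was tested on simulated counts.

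Sequences, positions and 50-base windows were computed from the R64 reference genome of RefSeq, and promoter letters from the 800 bases before each start codon. All 10 genes are named in each comparison. From the list of 32 ion genes, up to 3 with the largest and 3 with the smallest log2FC among the called ones are named, once for the response of the wild type and once for the difference between responses, and the 5 genes most correlated with the summed *ENA* rows (log2 CPM with a prior count of 2) are named as a description. A list of deleted, a-cell and alpha-cell genes checked the labels. The members and lists were chosen with earlier results of these data known. Alternatives were DESeq2 1.42.0, RLE size factors, library totals, scaling to *ENO1* (the loading control of the study), dropping the filter, a filter of 10 counts per library, a term for library numbers, a block for the replicate number, an offset for gene length with and without the block, a test against a log2FC of 1, and each library left out in turn.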

Additional observations from a re-analysis of the deposited data

Results flagged for a closer look

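The salt response differed between the strains, by the test of the difference itself (edgeR's quasi-likelihood test, adjusted over all genes), for 3 of the 10 transport genes and 10 of the 32 genes of the ion list. Among the transport genes the mutant's log2FC minus that of the wild type was -1.05 for *HAL5*, -0.83 for *NHA1* and 0.50 for *NHX1*. In the ion list it was -1.26 for *PTK2*, -0.89 for *HRK1*, -0.74 for *MIG1*, -0.73 for *SNF1*, -0.56 for *PPZ2*, -0.53 for *SIS2*, -0.39 for *CMP2*, 0.54 for *MET22*, 0.58 for *PMA1* and 1.34 for *PHO89*. *SNF1*, *SIS2* and *CMP2* are named here because the test called them, not by the rule for named genes. Such differences were called for 26.0% of all genes tested. Those of the ion list were not examined without single libraries or in the other settings. Single libraries far from the rest of their group were not looked for with a formal test, since each group has 3 libraries.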

How the results depend on the processing

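The wild type count of 8 called genes and the mutant count of 7 held in all 12 fits that left out 1 library (8 to 8 and 7 to 7), and the unstressed count was 0 in each (0 to 0). Upon NaCl the count of 3 ran from 2 to 3, and for the difference in response from 1 to 3. The summed *ENA* log2FC ran from 1.87 to 2.02 in the wild type, from 1.88 to 2.00 in the mutant, from 0.04 to 0.18 between unstressed strains, from 0.03 to 0.16 between stressed strains and from -0.07 to 0.07 for the difference in response, where its sign is not determined. Scaling to *ENO1* lowered the median log2FC of all genes by 0.52 (wild type) and 0.82 (mutant), and library totals raised it by 0.34 and 0.15. The median strain difference upon NaCl moved by -0.31 with *ENO1* and by -0.20 with library totals. Relative to *ENO1* the wild type count was 5 (4 higher and 1 lower) and the difference count 0 (edgeR; 1568 genes were called over the whole table by TMM and 550 by this scaling), the 3 genes called upon NaCl were all lower (*HAL5*, *NHA1* and *TRK2*), *NHX1* in the wild type was -0.05, *TRK2* -0.14 there and -0.66 in the mutant, and *SAT4* -0.74 in the mutant. The summed *ENA* value between stressed strains was -0.09 with library totals and -0.19 with *ENO1*, and its difference in response -0.18 and -0.29. The difference count was 1 with library totals and 1 with the term for library numbers, and the count upon NaCl was 1 with that term, which leaves 1 library in the stressed mutant group. The offset for gene length gave 6 upon NaCl (4 higher and 2 lower), with and without the replicate block, and a summed *ENA* value there of 0.48 in both. A test against a log2FC of 1 left 3 genes (the *ENA* rows) in the wild type, since it asks for more than a called change. The cause of the other changes was not tested. Over all settings and genes, 1054 of 1110 values kept their side of the threshold, and their direction too except for 87 that passed the threshold in neither fit and changed sign (values of -0.52 to 0.37). Of the rest, 40 no longer passed, 12 passed newly and 4 reversed.

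The labels do not say whether libraries with the same replicate number were grown or processed together. Deviations from the group means of equally numbered libraries correlated at -0.438 to 0.416 over the 4 pairs of groups compared. With the replicate number as a block the counts were 8, 7, 0, 3 and 3 as without it and the summed *ENA* log2FC was 1.94 in the wild type, and no call on the 10 genes changed. With 3 libraries per group the SE of a difference in response was 0.14 to 0.28 for these genes.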
